A study of Caenorhabditis elegans with 6 samples.

Results

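The miR-35 to miR-41 cluster is a group of 7 Caenorhabditis elegans microRNAs (miRNAs) encoded side by side on chromosome II. Its members were taken by name: the spots of a microarray whose target was miR-35, miR-36, miR-37, miR-38, miR-39, miR-40 or miR-41. These are 7 of the 108 miRNAs named on the array. The rule uses names and not measured values, although the cluster was picked with earlier results of these data known. The WBcel235 annotation places their 7 genes in numerical order, with no other miRNA gene in between, inside the span of the protein-coding gene Y62F5A.9.

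MicroRNAs are short RNAs that guide Argonaute proteins to messenger RNAs through their 5′ end, the seed, and lower the output of those messages. The miR-35 to miR-41 miRNAs and miR-42 share a seed and form the miR-35 family, whose members act redundantly and whose joint loss is lethal to C. elegans embryos. They are known as maternal and early embryonic miRNAs that disappear late in embryogenesis. Among their known C. elegans targets are egl-1, an activator of programmed cell death, and sup-26 and nhl-2, which bear on sex determination.

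The groups were 2 genotypes of whole adult worms that each carry a temperature-sensitive allele of a sex determination gene. The first, fem-3(q20ts), is a gain-of-function allele known to give a germ line that makes sperm and no oocytes at the restrictive temperature. The other, fem-2(b245ts), is a loss-of-function allele whose germ line makes oocytes and no sperm, so that the animals hold no embryos unless mated. Both were grown at 25 °C and harvested 24 hours after late L4, the last larval stage, as day 1 adults. Each genotype had 2 biological replicates, replicate 1 on 2 technical arrays and replicate 2 on 1 array, which makes 6 arrays of 4 biological samples. The arrays did not separate the germ line from the rest of the body, and in whole animals fewer cells of a type and less RNA per cell cannot be told apart. The short RNAs were purified on gels and ligated to a Cy3-labelled oligonucleotide, so that each array was read in 1 colour. Whether the germ line of each sample had made only sperm or only oocytes was not checked against other markers here.

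The values are spot intensities in arbitrary units, scaled by the authors to the same total on every array. Each miRNA was printed as 4 spots, and the intensity given here for an array is their mean. The background of an array was taken as its Buffer level, the 95th percentile of 32 spots printed without oligo. That level was 19.0 to 41.5 on the fem-3(q20ts) arrays and 21.4 to 127 on the fem-2(b245ts) arrays. Between 85 and 102 of the 108 miRNAs exceeded it on a fem-3(q20ts) array, and between 63 and 104 on a fem-2(b245ts) array. The number of biological samples, 2 per genotype, rather than a count of molecules, limits the precision.

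The comparison asks which miRNAs differ between adults with a spermatogenic and with an oogenic germ line. The cluster held a far smaller part of the miRNA signal in fem-3(q20ts). As a share of the summed signal of all 108 miRNAs, the 7 miRNAs made up 0.425% ± 0.0749 in fem-3(q20ts) and 13.4% ± 0.610 in fem-2(b245ts) (SD, n = 2 biological samples each). The share was 31.7-fold lower in fem-3(q20ts), 35.01-fold within replicate 1 and 29.0-fold within replicate 2. An exact permutation test of 2 against 2 samples gave p = 0.333, two-sided, which is the smallest this design allows. miR-36 held the largest single share in fem-2(b245ts), at 2.73% ± 0.319, and was at 0.111% ± 0.0162 in fem-3(q20ts) (SD, n = 2). miR-41 held the smallest in fem-2(b245ts), at 0.806% ± 0.157 (SD, n = 2). In fem-3(q20ts) the shares of miR-37, miR-40 and miR-41 have no order, since the signal of all 3 was below the Buffer level in replicate 1.

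**Figure D1:**
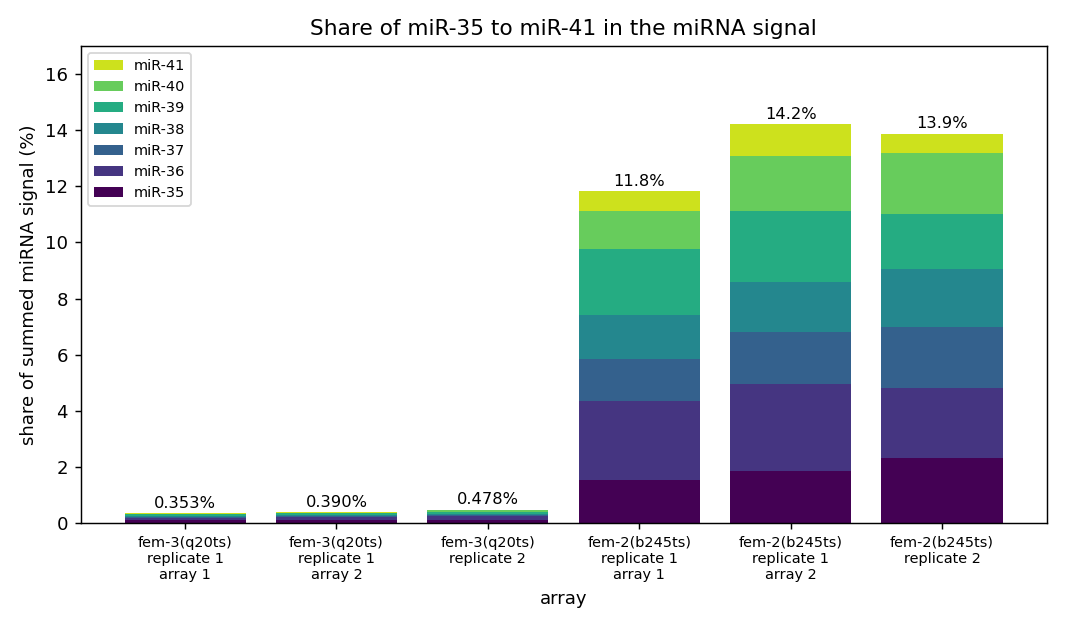
Stacked bars give the percent of the summed miRNA signal held by each of the 7 miRNAs on each of the 6 arrays, fem-3(q20ts) arrays on the left. The fem-3(q20ts) bars end between 0.353% and 0.478%, and the fem-2(b245ts) bars between 11.8% and 14.2%.

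The 3 members with signal above the Buffer level on every array were miR-35, miR-36 and miR-39. miR-35, the first gene of the cluster, had intensities of 103 and 110 on the technical arrays of fem-3(q20ts) replicate 1 and 117 in replicate 2, against 1209, 1410 and 2159 in fem-2(b245ts). The lowest fem-2(b245ts) array lay 10.3-fold above the highest fem-3(q20ts) array. miR-36, the second gene, had 73.6, 103 and 116 in fem-3(q20ts), against 2174, 2365 and 2328 in fem-2(b245ts). Here the arrays were 18.7-fold apart at their closest, and the fem-2(b245ts) arrays were nearly equal. miR-39, the fifth gene, had 53.9, 51.2 and 64.2 in fem-3(q20ts), against 1827, 1913 and 1814 in fem-2(b245ts). Its groups were separated by 28.3-fold at their closest, although its fem-3(q20ts) signal exceeded the Buffer level by only 1.23 to 3.38 times.

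The other 4 members reached the Buffer level on all fem-2(b245ts) arrays but on only some or none of the fem-3(q20ts) arrays. miR-38 had 41.99, 38.9 and 60.1 in fem-3(q20ts), of which 2 of 3 were above that level, against 1230, 1363 and 1901 in fem-2(b245ts). miR-37 had 14.2, 15.4 and 31.9 in fem-3(q20ts), above it on 1 of 3 arrays, against 1163, 1394 and 2029 in fem-2(b245ts). miR-40 was the least even member in fem-3(q20ts): 13.0 and 16.1 in replicate 1 but 53.3 in replicate 2, which alone exceeded background. In fem-2(b245ts) miR-40 had 1032, 1495 and 2027. miR-41, the last gene of the cluster, had 13.7, 12.6 and 12.2 in fem-3(q20ts), not above the Buffer level on any of the 3 arrays, against 558, 849 and 646 in fem-2(b245ts). As for the first 3 members, the arrays of the genotypes did not overlap for any of these 4, and 12.8% of all tested miRNAs had their fem-3(q20ts) arrays below all fem-2(b245ts) arrays in this way.

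**Figure D2:**
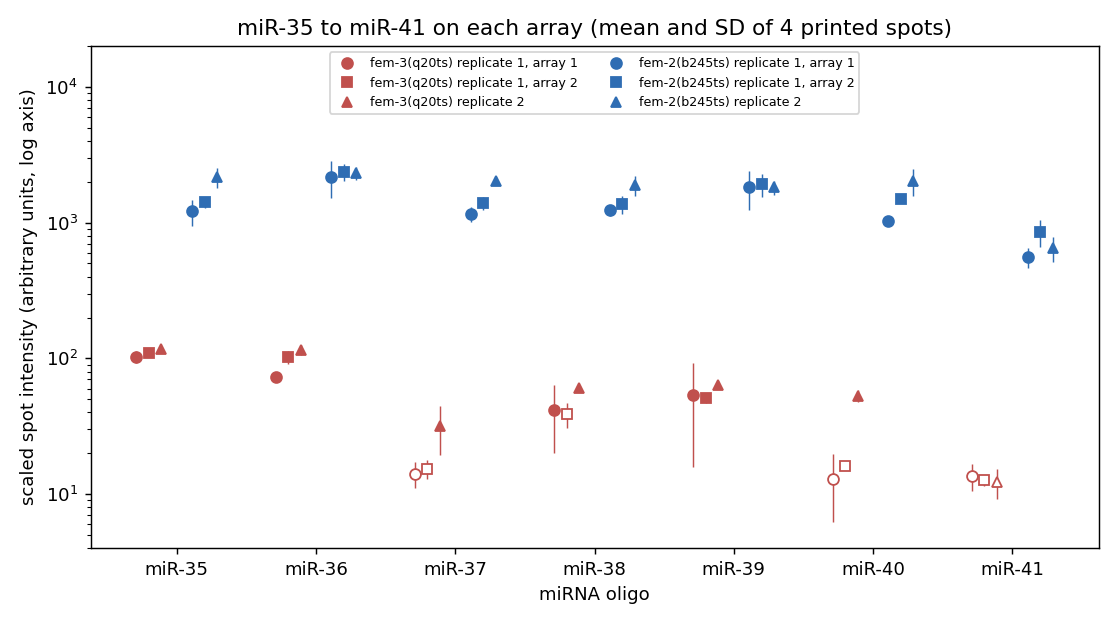
Points give the mean scaled intensity of 4 spots for each miRNA on each array, on a log axis, with bars for the SD of the spots, filled where it exceeds the Buffer level of its array and open where it does not. Every fem-3(q20ts) point lies at 117 or below and every fem-2(b245ts) point at 558 or above.

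The difference, fem-3(q20ts) minus fem-2(b245ts) on the log2 scale, was tested with limma over the 94 miRNAs whose mean signal exceeded the detection level. Of the 7 members, miR-37, miR-40 and miR-41 averaged below that level in fem-3(q20ts) and entered the test through fem-2(b245ts), so their calls are given as a description. Over those 94 miRNAs, 7.45% were called lower at an adjusted p of 0.05, and these were the 7 members. For miR-35, miR-36, miR-38 and miR-39 the adjusted p-values ran from 0.000761 to 0.00194 (limma, Benjamini-Hochberg over 94 miRNAs, n = 2 biological samples each). At the same threshold 1.06% were called higher, which was miR-243 alone, at 1.89. Whichever biological sample was left out, miR-243 kept a difference of 1.72 to 2.06 but was no longer called. Among the members above background on at least 2 of 3 fem-3(q20ts) arrays, the log2 difference was -3.90 (SE 0.37) for miR-35, -4.50 (SE 0.32) for miR-36, -5.03 (SE 0.31) for miR-39 and -5.02 (SE 0.39) for miR-38. For miR-37, miR-40 and miR-41 the fitted differences were -6.22, -5.77 and -5.59. With every value below its array's Buffer level set to that level they were -5.54, -5.11 and -4.59, so their sizes and their order among the members were not measured.

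For the members measured above background on every array, the signal in fem-3(q20ts) was 14.9-fold lower for miR-35, 22.7-fold lower for miR-36 and 32.6-fold lower for miR-39. The scanner files of replicate 1 were also taken through normexp background correction with an offset of 50, then quantile normalization. There the log2 differences of these 3 were smaller, at -2.97, -4.00 and -4.17. The main values within replicate 1 were -3.60, -4.68 and -5.24. What part the offset, the background correction or the quantile normalization had in these smaller values was not tested. The signal of miR-41 in fem-3(q20ts) has only a bound, and fell at least 22.4-fold below that in fem-2(b245ts). This bound takes, on each fem-3(q20ts) array, the dimmest miRNA that exceeded background in place of miR-41 itself. For miR-37 and miR-40, measured above the Buffer level on 1 of 3 fem-3(q20ts) arrays each, no fold is given.

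The median of the 7 differences was -5.03, or -4.925 with values set to the Buffer level, against 0.14 over all 94 miRNAs and 0.18 over the 87 others. The lowest difference among those 87 was -1.25, that of miR-42. The miRNAs with all 3 fem-3(q20ts) arrays below all 3 fem-2(b245ts) arrays were the 7 members together with miR-42, miR-43, miR-61, miR-74 and miR-76.

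**Figure D3:**
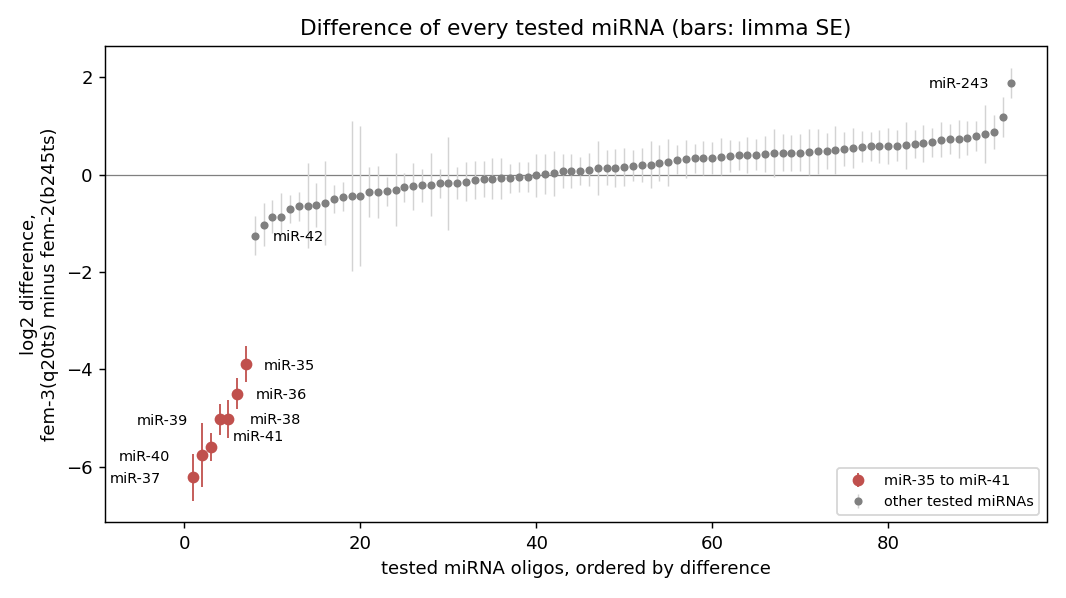
Each point is 1 of the 94 tested miRNAs, ordered along the x axis by its log2 difference, fem-3(q20ts) minus fem-2(b245ts), with bars for the limma standard error. The 7 cluster members lie between -6.22 and -3.90 (miR-37, miR-40 and miR-41 below the Buffer level in fem-3(q20ts) replicate 1), the next miRNA, miR-42, at -1.25, and miR-243 at 1.89.

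The falls were larger than any spread between arrays or replicates of the same genotype. Between technical arrays of 1 RNA sample, the members differed on the log2 scale by 0.016 to 0.48 in fem-3(q20ts) and by 0.097 to 0.60 in fem-2(b245ts). Biological replicates of fem-3(q20ts) differed by 0.13 to 0.65 for miR-35, miR-36, miR-38 and miR-39. For miR-37, miR-40 and miR-41, below the Buffer level in replicate 1, these gaps were 0.997, 1.75 and 0.012. The small gap of miR-41 is no measure of agreement, since its signal lay near 12.8, the value to which lower ones were set. In fem-2(b245ts) the replicates differed by 0.016 to 0.72 over all members, the most for miR-35. Over the 9 ways to set a fem-3(q20ts) array against a fem-2(b245ts) array, the smallest fall of any member was a log2 difference of -3.35, that of miR-35. Arrays with the same replicate number also share a token in their descriptions whose meaning the labels do not give, so the differences were taken within each number too. They were -3.60 and -4.19 for miR-35, -4.68 and -4.32 for miR-36, -5.24 and -4.81 for miR-39 within replicates 1 and 2. For miR-38 they were -5.07 and -4.97. The other 3 members were below the Buffer level in fem-3(q20ts) replicate 1 and are left out here.

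The separate scanner files of the 4 replicate 1 arrays show the same members at the level of single spots. On both fem-2(b245ts) arrays the scanner software marked all 28 member spots as detected, against 11 and 14 of 28 on the fem-3(q20ts) arrays. A signal-to-noise score above 3 was reached by 10 and 12 of 28 member spots on the fem-3(q20ts) arrays and by 28 of 28 on both fem-2(b245ts) arrays. Over all miRNA spots that share was 69.0% and 74.5% on the fem-3(q20ts) arrays against 58.6% and 80.6% in fem-2(b245ts). Of the 32 Buffer spots, 0 and 4 reached it in fem-3(q20ts), against 1 and 8 in fem-2(b245ts). In fem-3(q20ts) all 4 spots of miR-35 and of miR-36 were detected on both arrays, and 0 of 4 spots of miR-37, miR-40 and miR-41 on either. miR-39 had 2 and 4 detected spots and miR-38 had 1 and 2. The signal-to-noise score of the member spots had medians of 0.864 and 1.65 on the fem-3(q20ts) arrays and of 32.8 and 105 on the fem-2(b245ts) arrays. None of the member spots held saturated pixels. Among the 4 spots of a member, the coefficient of variation on an array had a median of 10.2% in fem-3(q20ts), up to 70.5% for miR-39 on array 1 of replicate 1, and a median of 15.0% in fem-2(b245ts).

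By signal rank the cluster lay among the dimmer miRNAs in fem-3(q20ts) and among the brighter ones in fem-2(b245ts). The brightness of an oligo also depends on how well its RNA is labelled and hybridised, so a rank describes signal and not abundance. In fem-3(q20ts) the members ranked from 64, for miR-35, to 105 of 108, and 0 of 7 were among the 30 brightest on any array. In fem-2(b245ts) they ranked from 7, for miR-36, to 37, for miR-41, with 5, 6 and 6 of 7 members among the 20 brightest miRNAs of the 3 arrays. miR-36 ranked 72, 66 and 68 in fem-3(q20ts) and 10, 7 and 8 in fem-2(b245ts). miR-41 ranked 103, 103 and 105 in fem-3(q20ts) and 35, 27 and 37 in fem-2(b245ts).

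**Figure D4:**
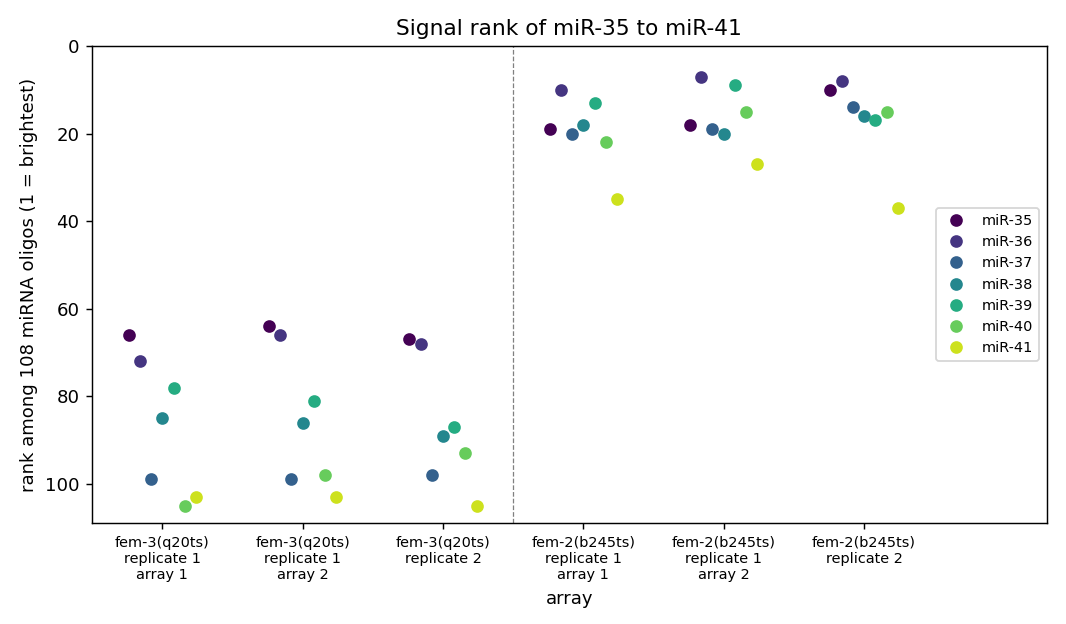
Points give the rank of each member's intensity among 108 miRNAs, 1 being the brightest, at the top of the y axis, on each array. The fem-3(q20ts) arrays hold ranks 64 to 105 and the fem-2(b245ts) arrays ranks 7 to 37, with miR-41 the dimmest member on all 3 fem-2(b245ts) arrays.

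The order of the members' signal was partly the same within a genotype and differed between the genotypes. In fem-3(q20ts) the order miR-35, miR-36, miR-39, miR-38 held on all 3 arrays, with miR-37, miR-40 and miR-41 below them. In fem-2(b245ts) miR-36 was brightest and miR-41 dimmest on all 3 arrays, while the order of the 5 in between differed from array to array. Among those 5, miR-39 stood second on both arrays of replicate 1 and sixth in replicate 2, and miR-35 lay just above miR-37 on all 3 arrays. The gap between miR-35 and miR-37 was, on each of these arrays, smaller than the SD of the 4 spots of either miRNA. miR-35 was thus above miR-36 on 3 of 3 fem-3(q20ts) arrays and below it on 3 of 3 fem-2(b245ts) arrays. In fem-3(q20ts) replicate 2, however, they were nearly equal, at 117 ± 7.1 and 116 ± 9.8 (SD of 4 spots). The other 2 fem-3(q20ts) arrays were repeats of 1 RNA sample.

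Within an array, the log2 ratio of 2 members does not depend on how the array was scaled. The ratio of miR-35 to miR-36 was 0.16 ± 0.20 in fem-3(q20ts) and -0.45 ± 0.47 in fem-2(b245ts) (SD, n = 2). That of miR-35 to miR-39 was 1.00 ± 0.20 in fem-3(q20ts) and -0.13 ± 0.52 in fem-2(b245ts) (SD, n = 2). That of miR-36 to miR-39 was 0.85 ± 0.0093 in fem-3(q20ts) and 0.32 ± 0.053 in fem-2(b245ts) (SD, n = 2). In all 3 pairs the ratio was higher in both fem-3(q20ts) samples than in both fem-2(b245ts) samples, by 0.61, 1.13 and 0.52, and the exact permutation p of each was 0.333, two-sided, the smallest possible with 2 against 2. After subtraction of the median Buffer spot the differences in ratio were 0.64, 1.30 and 0.66. Whether related sequences cross-hybridise on these oligos was not tested.

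The 7 oligos also shared their place on the slide. They were printed one after another in rows 2 to 4 of 1 of the 4 print blocks, between miR-34 and miR-77. The 22 other tested miRNAs of that block had a median log2 difference of 0.27, from -0.86 to 1.18, against 0.16 for the 65 tested miRNAs of the other blocks. miR-34, printed just before miR-35, had intensities of 783 ± 163 in fem-3(q20ts) and 715 ± 190 in fem-2(b245ts) (SD, n = 2). For miR-77, printed just after miR-41, they were 7480 ± 1015 in fem-3(q20ts) and 4322 ± 592 in fem-2(b245ts) (SD, n = 2). Their log2 differences were 0.14 for miR-34 and 0.79 for miR-77. Of the 7 other tested miRNAs in the members' rows of the block or the rows next to them, 6 had a positive difference and 1 a negative one, which was miR-1 at -0.17 and changed sign under other scalings.

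The remaining member of the seed family, miR-42, is encoded elsewhere on chromosome II, with mir-43 and mir-44 as the next miRNA genes and 6 other miRNA genes between mir-41 and mir-42. miR-42 had intensities of 28.0, 55.2 and 65.2 in fem-3(q20ts), against 131, 91.5 and 122 in fem-2(b245ts). The genotypes did not overlap, but its signal exceeded the Buffer level on 2 of 3 arrays of each and the test was not passed, at a log2 difference of -1.25 (SE 0.40, limma adjusted p = 0.261). miR-43, which has another seed, had 49.0, 62.2 and 72.1 in fem-3(q20ts), against 167, 107 and 98.8 in fem-2(b245ts). Its signal exceeded the Buffer level on 3 of 3 fem-3(q20ts) arrays and on 2 of 3 fem-2(b245ts) arrays. The difference of miR-43 was -0.87 (SE 0.34, limma adjusted p = 0.379). miR-44 was at 460, 462 and 856 in fem-3(q20ts) and at 709, 442 and 769 in fem-2(b245ts), so that the genotypes overlapped, with a difference of -0.08. In this second cluster 0 of 3 miRNAs passed the test, which 1 of the 87 tested miRNAs other than the 7 members passed.

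Across the 6 arrays the 7 members had nearly the same profile, with a Pearson r of log2 intensity between 0.977 and 1.00 over the 21 pairs of members. These correlations describe mainly the gap between the genotypes, since the arrays fall into 2 groups and some are repeats of 1 RNA sample. Of the 87 other tested miRNAs, those with the highest r to the members' mean profile over the 6 arrays were miR-42 (0.89), miR-74 (0.87), miR-43 (0.86), miR-61 (0.76) and miR-271 (0.75). None of these passed the test, which 1 of the 87 passed. Their log2 differences were -1.25, -0.50, -0.87, -1.03 and -0.86. miR-74 was the brightest of the 5, with 326 ± 29.4 in fem-3(q20ts) and 457 ± 23.2 in fem-2(b245ts) (SD, n = 2). miR-271 exceeded the Buffer level on 3 of 3 fem-3(q20ts) arrays but on only 1 of 3 fem-2(b245ts) arrays.

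Lists of miRNAs known from other settings gave no call in either direction in the unpaired fit. Over all 87 tested miRNAs outside the cluster there was 1 call, so an absence of calls does not set these lists apart. In the miR-51 family, which is known from embryos and acts throughout development, 0 of 6 members passed, with differences from -0.35 for miR-51 to 0.60 for miR-56 and a median of 0.45. Of the somatic tissue miRNAs, 4 of 5 were on the array and tested (lsy-6 was not analysed here) and 0 of 4 passed. They ran from -0.17 for miR-1 of body wall muscle to 0.75 for miR-60 of the intestine, with miR-124 of neurons and miR-228 of glia between them and a median of 0.42. Among the heterochronic miRNAs, which time larval development, 0 of 5 passed, with a range of -0.22 to 1.18, a median of 0.14, lin-4 at 1.18 and miR-241 at 0.07. With the replicate number as a block, lin-4 was called higher (limma adjusted p = 0.0417). The signs of the small differences of miR-1, miR-44, miR-51 and miR-241 depend on the scaling.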

How the data were processed

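The deposited value table holds 1 linear intensity per spot, scaled by the authors on total array intensity, per the series design text. Scanner files of the 4 replicate 1 arrays also gave, per the file headers, mean spot and median background intensity, a signal-to-noise score and the percent of saturated pixels. For all member spots the deposited normalized intensity was the spot mean less the median background (tolerance 0.005), and multiplying it by 1 factor per array gave the value table (tolerance 0.1%). Names came from the scanner layout by spot number and were carried over to the replicate 2 arrays, where the spots of a name had a median log2 SD of 0.18 in fem-3(q20ts) and 0.19 in fem-2(b245ts).

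Values below 12.8 (10th percentile of the positive ones) were set to it, and intensities were log2-transformed and averaged over spots, then over technical arrays. The 94 miRNAs above 37.2, the Buffer level averaged over samples on the log2 scale, were tested, two-sided and unpaired, with lmFit and eBayes of limma 3.58.1 (R 4.3.3), and Benjamini-Hochberg adjustment at 0.05. The script was tested on simulated data. Alternatives covered scaling, background, floor, filter, technical arrays, variance model, a replicate block and each sample left out. Of 108 names, 99 matched a miRNA gene of WBcel235. Named miRNAs were the members, miR-42 to miR-44, every call, the 5 most correlated and the extremes of each list. Members, lists and rules were chosen with earlier results of these data known.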

Additional observations from a re-analysis of the deposited data

How the results depend on the processing

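miR-35, miR-36, miR-38 and miR-39 were called lower in every alternative fit with a test that kept all biological samples. So were miR-37, miR-40 and miR-41, which entered the test through fem-2(b245ts), so their calls are a description. Over all alternatives the lowest log2 difference of a member was -6.72, for miR-37 without fem-3(q20ts) replicate 2. In the replicate 1 that remained, miR-37 was below the Buffer level. The highest was -2.97, for miR-35 in the scanner files, where no test was run. In the limma fits that kept all samples, the adjusted p-values of miR-35, miR-36, miR-38 and miR-39 ran from 1.67e-07 to 0.0111. The lowest was that of miR-39 with all arrays fitted and technical arrays taken as correlated. The highest was that of miR-35 with scaling on the spike control. The median difference of all 7 members, miR-37, miR-40 and miR-41 included, was -5.03 in the main fit. It was -4.78 after quantile normalization, -4.67 after median centring and -4.47 on the spike control. Scaling on miRNAs outside the miR-35 family gave -5.35, as did Buffer subtraction. The scanner files of replicate 1 gave -4.00 (normexp and quantile normalization, no test). Leaving out 1 biological sample gave -5.34 to -4.82, where the lone sample of a genotype is assumed to vary like the other genotype. The median of all tested miRNAs moved with these scalings, from 0.14 to between -0.19 and 0.70. With the replicate block, 7 miRNAs were again called lower and 2 higher (miR-243 and lin-4), against 7 and 1. The labels do not say whether the numbers pair the samples, and the replicate 1 minus replicate 2 deviations of the genotypes correlated with r = 0.711 over the 94 miRNAs. Without any 1 sample, 0 were called higher. Leaving the brightest miRNA, miR-58, out of the total gave shares of 0.503% in fem-3(q20ts) and 15.8% in fem-2(b245ts). Among the named miRNAs 5 turned sign. miR-1 did after quantile normalization (0.071), median centring (0.19) and on the spike control (0.39), with -0.39 to 0.043 on leaving out a sample. miR-44 did in the same 3 settings (0.18, 0.28, 0.48) and with technical array 2 alone (0.10), with -0.53 to 0.37. miR-51 did under median centring (0.0092) and on the spike control (0.21), with -0.98 to 0.28. miR-241 did on miRNAs outside the miR-35 family (-0.26), with -0.20 to 0.34. miR-74 did on the spike control (0.063). The causes were not tested. Signal near the Buffer level limits what can be said of miR-37, miR-40 and miR-41 in fem-3(q20ts): with values floored at that level, the members' differences ran from -5.54 to -3.90.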
